A study of Mus musculus with 30 samples.

Results

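The comparison set 8 tumour libraries that carried skin RNA against the 22 other libraries of the same study, 30 in all, and described which genes came with the skin. A library was placed in the skin-rich class when Krt10 lay above 15 CPM (counts-per-million, a gene's count scaled to the total of its library) and Krt14 lay above 20 CPM. The libraries were thus chosen by the measured levels of Krt10 and Krt14, and every difference between the classes given here is a description of these libraries and not a test. All libraries came from tumours grown under the skin of female C57BL/6J mice aged 10 weeks from MC38, an established colon carcinoma line of the mouse. Each mouse received 500000 cells in the right flank and was treated once, into a vein, when its tumour measured 200 to 300 mm3. The 3 treatments were vehicle, mXTX301 at 0.39 mg/kg, which is a masked surrogate of interleukin-12 active in the mouse, and an unmasked positive control at 0.03 mg/kg. Tumours were taken on day 4 or day 7, which gave 6 groups of 5 numbered replicates with 1 library each. The labels do not state that every replicate is a separate mouse, so p-values measure the spread between these samples. How skin was separated from the tumour is not given in the sources used here.

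The epidermis, the outer layer of skin, is a stratified sheet of keratinocytes. Cells divide in the basal layer, where they make the keratin pair Krt5 and Krt14 and hold on to the basement membrane. As they move up they leave the cycle, switch to Krt1 and Krt10, build many desmosomes and finally fill with proteins such as loricrin that are cross-linked into the cornified envelope. Hair follicles and sebaceous glands grow down from this sheet into the dermis, and in the mouse a thin sheet of skeletal muscle lies under the skin.

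The 4 promoters shown here belong to a basal keratin (Krt5), a spinous keratin (Krt10), a spinous secreted protein (Krtdap) and the main cornified envelope protein (Lor), which were among the genes that marked the skin-rich libraries. The sequences are the 250 bases before the annotated start in RefSeq, build GRCm38.p6, read 5′ to 3′ on the gene's strand, and the windows lie at chr15:101712906-101713155 (minus strand), chr11:99389365-99389614 (minus strand), chr7:30787655-30787904 (plus strand) and chr3:92083143-92083392 (minus strand). Capitals mark matches to TATAAA, the core of the TATA box, and to TGANTCA, the consensus bound by AP-1 factors, searched on both strands.
Krt5: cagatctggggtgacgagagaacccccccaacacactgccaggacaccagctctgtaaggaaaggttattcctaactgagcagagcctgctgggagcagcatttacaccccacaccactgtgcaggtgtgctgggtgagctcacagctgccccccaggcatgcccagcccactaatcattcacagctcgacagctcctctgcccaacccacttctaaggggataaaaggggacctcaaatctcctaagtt
Krt10: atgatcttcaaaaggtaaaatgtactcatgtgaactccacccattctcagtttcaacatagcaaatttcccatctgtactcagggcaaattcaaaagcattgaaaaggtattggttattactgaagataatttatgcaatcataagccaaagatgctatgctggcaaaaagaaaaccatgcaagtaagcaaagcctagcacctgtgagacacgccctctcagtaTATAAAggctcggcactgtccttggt
Krtdap: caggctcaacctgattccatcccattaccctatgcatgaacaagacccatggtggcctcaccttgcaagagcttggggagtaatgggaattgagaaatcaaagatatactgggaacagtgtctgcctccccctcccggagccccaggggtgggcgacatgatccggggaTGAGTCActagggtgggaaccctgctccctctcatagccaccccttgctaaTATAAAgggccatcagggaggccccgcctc
Lor: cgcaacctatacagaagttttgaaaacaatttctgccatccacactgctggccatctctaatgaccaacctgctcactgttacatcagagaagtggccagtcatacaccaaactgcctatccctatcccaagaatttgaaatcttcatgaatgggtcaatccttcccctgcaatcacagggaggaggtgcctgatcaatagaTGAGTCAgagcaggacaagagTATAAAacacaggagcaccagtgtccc
TATAAA was found once in Krt10, Krtdap and Lor, and TGANTCA once in Krtdap and Lor. Krt5 held neither set of letters in this window, and none of the 4 windows held GCCNNNGGC, a consensus of AP-2 factors. Among 11810 tested genes with such a window, TATAAA was present in 8.6%, TGANTCA in 6.18% and GCCNNNGGC in 23.1%. Among the 268 genes higher in the skin-rich libraries that had a window, the shares were 15.7%, 14.6% and 20.1%.

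The skin-rich libraries were spread over all 6 groups. There was 1 each in vehicle day 4 (replicate 4), vehicle day 7 (replicate 5), mXTX301 day 4 (replicate 3) and unmasked control day 4 (replicate 5), and there were 2 each in mXTX301 day 7 (replicates 1 and 3) and unmasked control day 7 (replicates 3 and 5). At day 7, 5 of 15 libraries were skin-rich, against 3 of 15 at day 4, an odds ratio of 1.95 with a 95% interval of 0.292 to 15.8 (two-sided Fisher's exact test, p = 0.682). Of the 20 libraries from drug-treated mice 6 were skin-rich, against 2 of the 10 vehicle libraries, an odds ratio of 1.69 with an interval of 0.224 to 21 (two-sided Fisher's exact test, p = 0.682, and 0.682 after adjustment over both comparisons). With 8 skin-rich libraries these intervals are wide, and an uneven spread over treatment or day was not detectable. Total counts ran from 56340422 to 65843818 in the skin-rich class and from 48303284 to 85198694 in the others, so 1 read was worth 0.0117 to 0.0207 CPM.

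The thresholds fell into an empty stretch for Krt10 and close to 4 libraries for Krt14. The skin-rich library nearest the threshold was vehicle day 4 replicate 4, with Krt14 at 28.5 CPM and Krt10 at 28.5 CPM. Just outside lay 4 libraries whose Krt14 was between 10 and 20 CPM: unmasked control day 4 replicate 4 at 17.4 CPM, vehicle day 7 replicates 2 and 3 at 15.2 CPM each, and unmasked control day 7 replicate 2 at 14.5 CPM. Krt14 was under 1 CPM in the remaining 18 libraries, between 0.0165 and 0.553 CPM. The 22 other libraries are therefore not uniform, and the values of these 4 are given apart where they matter.

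**Figure D1:**
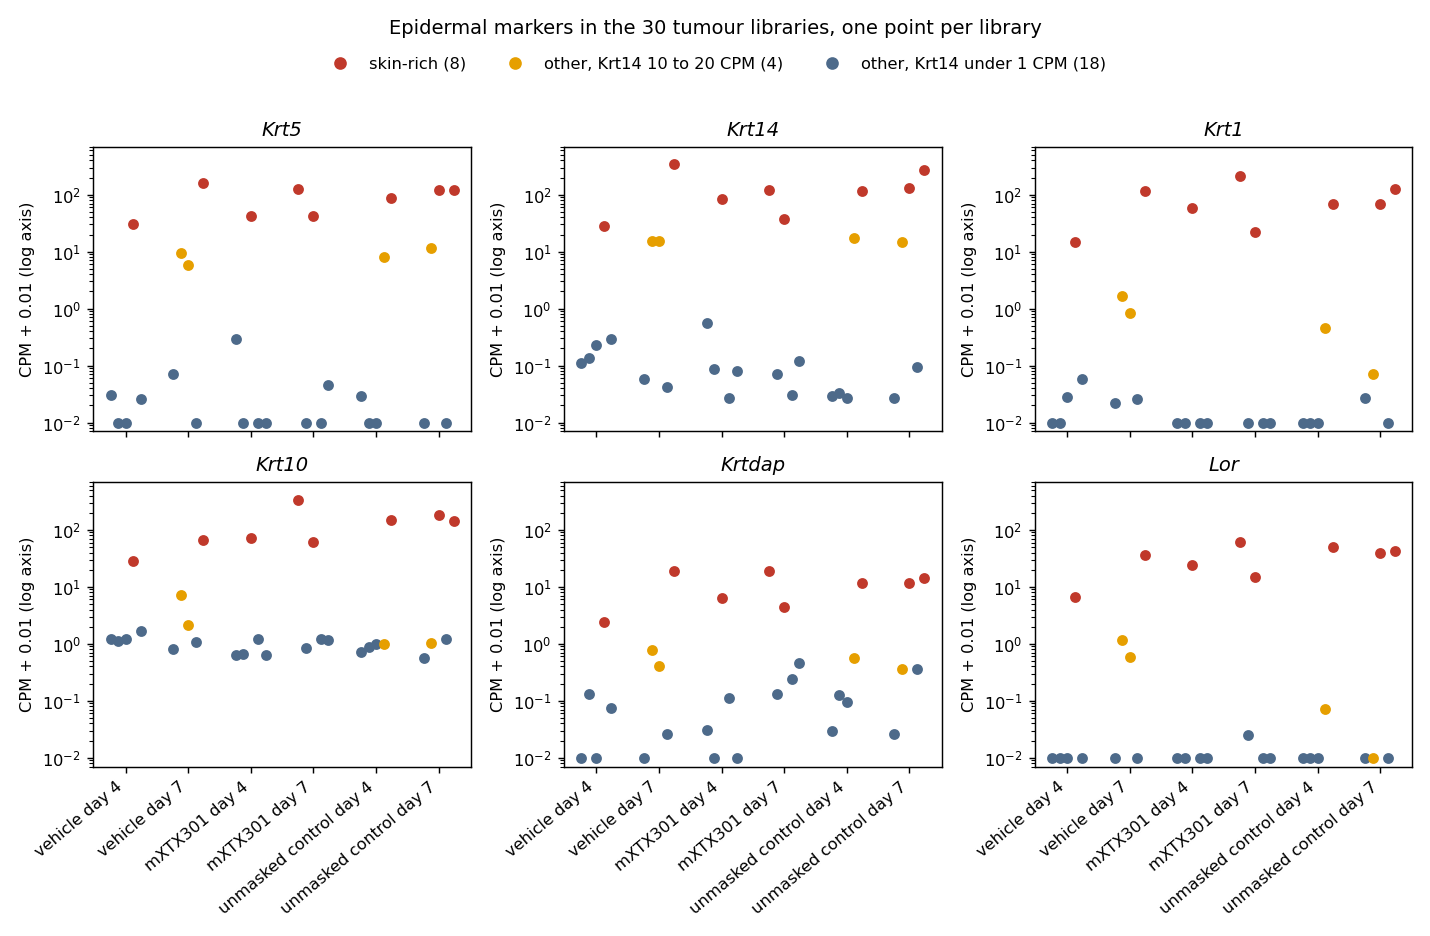
Level of 6 epidermal markers (CPM + 0.01, log axis) in each of the 30 libraries by group, 1 point per library; red points are the 8 skin-rich libraries, orange points the 4 others with Krt14 of 10 to 20 CPM, blue points the remaining 18. Lor was between 6.52 and 61.8 CPM in the red points and at most 1.18 CPM in all others.

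Across 15482 tested genes, 384 (2.48%) were higher and 16 (0.103%) were lower in the skin-rich libraries in a fit that also held the 6 groups, at an adjusted p under 0.05 (edgeR quasi-likelihood test, Benjamini-Hochberg adjustment). Nothing is read from these shares, since the classes were made from reads of the same libraries. Genes with few reads in every library were not tested, so the shares of keratinocyte lists, families and clusters below are descriptions too. By size, 275 of the 384 genes were at least 4-fold higher, 76 were between 2-fold and 4-fold higher, and 33 were less than 2-fold higher. The count of lower genes depended on the processing, as given below. The median log2 difference over all tested genes was -0.007. In 224 genes (1.45% of those tested) each skin-rich library lay above every other library of its own group in all 6 groups, and in 138 genes (0.891%) the lowest skin-rich library lay above the highest of the 22 others. No gene showed the reverse pattern in either count.

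The amount of skin RNA differed widely among the 8 libraries. The 275 genes at least 4-fold higher took 0.301% of all counts in vehicle day 7 replicate 5, the library with the most. The share was 0.223% in unmasked control day 7 replicate 5, 0.187% in mXTX301 day 7 replicate 1, 0.135% in unmasked control day 7 replicate 3 and 0.132% in unmasked control day 4 replicate 5. It was 0.0888% in mXTX301 day 4 replicate 3, 0.0479% in mXTX301 day 7 replicate 3 and 0.0313% in vehicle day 4 replicate 4. The 22 other libraries lay between 0.00293% and 0.0137%, and the 4 with Krt14 above 10 CPM were the highest of them. In a bulk library a larger share of skin cells and more RNA per skin cell cannot be told apart.

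Basal keratinocyte genes carried the rule's own marker. Krt14, at chromosome 11, 100203162 to 100207510 (GRCm38.p6, the same assembly as mm10), encodes the type I keratin of basal cells. Its level was 28.5, 118 and 345 CPM at the lowest, median and highest skin-rich library, against 0.0165, 0.0803 and 17.4 CPM in the others, a log2 difference of 6.57 ± 0.85 (SE). Krt5, its type II partner at chromosome 15, 101707069 to 101712905, was at 30.7, 105 and 163 CPM against 0, 0 and 11.8 CPM, a log2 difference of 6.90 ± 0.88. Krt5 separated the classes without overlap. Krt14 did so too, but it was part of the rule, so its separation is not a result. In both genes the highest of the other libraries was 1 of the 4 with intermediate Krt14.

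Other basal genes followed on a lower scale. Krt15, a basal keratin also known from the hair follicle bulge, was at 1.89, 10 and 14.4 CPM against 0, 0 and 0.792 CPM (log2 difference 7.16 ± 0.63). Trp63, the transcription factor that maintains stratified epithelium, was at 0.464, 2.76 and 5.5 CPM against 0, 0.0316 and 0.332 CPM (5.22 ± 0.46). Col17a1, a hemidesmosome collagen, was at 6.04, 24.3 and 42.3 CPM against 0.459, 0.669 and 3.71 CPM (4.41 ± 0.31). These 3 did not overlap between the classes either. Of 19 basal genes on the list, 18 were tested and 14 were called higher, with a median log2 difference of 2.49. Krt14, among the 14, was part of the rule. The 4 that were not called were Itga6, Itgb4, Tfap2a and Col7a1, with log2 differences of -0.05 to 0.29. They are also found outside the epidermis, and their level in the other libraries was already at least 20.3 CPM in each: Itgb4, an integrin of hemidesmosomes, lay between 20.3 and 49.8 CPM there, and Col7a1, the anchoring fibril collagen, between 254 and 745 CPM.

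Spinous and desmosome genes were higher throughout the list. Krt10, at chromosome 11, 99385254 to 99397449, is the type I keratin of suprabasal cells and was used by the rule. It was at 28.5, 107 and 328 CPM in the skin-rich libraries and at 0.545, 1.04 and 7.24 CPM in the others (log2 difference 6.62 ± 0.37). It was detected in every library, at 0.545 CPM or more. Krt1, its type II partner at chromosome 15, 101845426 to 101850786, was at 14.9, 68.9 and 210 CPM against 0, 0 and 1.64 CPM (9.89 ± 0.56). Krtdap, a small secreted protein of suprabasal keratinocytes at chromosome 7, 30787905 to 30791089, was at 2.4, 11.6 and 19.2 CPM against 0, 0.0946 and 0.778 CPM (5.90 ± 0.49). The lowest skin-rich library for Krt10, Krt1 and Krtdap was vehicle day 4 replicate 4 in each case.

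Desmosomes rivet neighbouring keratinocytes together, and the listed cadherins and plakins were called higher, as were the plakophilins Pkp1 and Pkp3. Pkp2 and Pkp4, which are not on the list, had log2 differences of 0.18 ± 0.33 and 0.03 ± 0.07 and were not called. Dsg1a, a suprabasal desmosomal cadherin, was at 1.68, 8.97 and 19 CPM against 0, 0 and 0.695 CPM (log2 difference 7.70 ± 0.63). Dsc1, a second suprabasal cadherin, was at 0.558, 3.53 and 12.5 CPM against 0, 0 and 0.309 CPM (7.55 ± 0.58). Dsp, desmoplakin, which ties desmosomes to keratin filaments, was at 8.25, 42.1 and 98.4 CPM against 0.0929, 0.208 and 3.26 CPM (6.15 ± 0.45). The smallest differences on the list belonged to desmosome genes that the other libraries also held. Jup, plakoglobin, was at 16.5, 27.1 and 52.1 CPM against 5.43, 13.7 and 70.2 CPM (1.02 ± 0.24), and the classes overlapped. Of 23 genes listed, 22 were tested and all 22 were called higher, with a median log2 difference of 6.03. Krt10, among the 22, was part of the rule. Krt2 was not tested, with at most 0.086 CPM in any library.

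Cornified envelope genes showed the widest separation. Lor, loricrin, at chromosome 3, 92080271 to 92083142, was at 6.52, 37.1 and 61.8 CPM against 0, 0 and 1.18 CPM, a log2 difference of 10.22 ± 0.59 and the largest of the genes named by size. Hrnr, hornerin, a filaggrin-like protein, was at 0.911, 4.83 and 10.5 CPM against 0, 0 and 0.0834 CPM (9.63 ± 0.39). Rptn, repetin, was at 0.048, 1.64 and 19.8 CPM against 0, 0 and 0.201 CPM (9.14 ± 0.75), with overlap between the classes. Rptn varied more among the skin-rich libraries than Hrnr, although both genes are neighbours on chromosome 3.

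The late cornified envelope genes, which encode small proteins cross-linked last, were all low in absolute terms and nearly empty elsewhere. Lce1a1 was at 0.64, 3.85 and 5.71 CPM against 0, 0 and 0.153 CPM (log2 difference 8.66 ± 0.45). Lce1e was at 0.32, 1.2 and 1.97 CPM, and the 22 other libraries held 1 read of it in all, so no fold is given. Kprp, a keratinocyte proline-rich protein, was at 0.64, 2.9 and 4.5 CPM against 0, 0 and 0.0834 CPM (8.48 ± 0.42). The Lce1 genes are near-identical in sequence, so the division of reads between single members is uncertain. Of 32 cornified genes listed, 29 were tested and 27 were called higher, with a median log2 difference of 7.18. Tgm1, a cross-linking enzyme, and Cdsn, corneodesmosin, were not called. Cdsn lay between 32.4 and 87.7 CPM in the skin-rich libraries and between 32.5 and 77.1 CPM in the others. Flg, filaggrin, was not matched in the table and was not analysed here.

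Genes of barrier lipids and of the shedding of dead cells were part of that list. Asprv1, a protease that processes filaggrin, was at 2.69, 17.2 and 31.1 CPM against 0.0774, 0.312 and 1.7 CPM (log2 difference 5.05 ± 0.33). Spink5, an inhibitor of skin kallikreins, was at 0.991, 6.32 and 13.4 CPM against 0, 0 and 0.742 CPM (7.39 ± 0.68). Klk7, a kallikrein that cuts corneodesmosomes, was at 1.28, 6.64 and 17.9 CPM against 0, 0.104 and 0.584 CPM (5.47 ± 0.43). Abca12, a lipid transporter of lamellar granules, was at 0.256, 1.48 and 3.25 CPM against 0, 0.019 and 0.0773 CPM (5.72 ± 0.37). Asprv1, Spink5, Klk7 and Abca12 each stood without overlap between the classes.

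Wound and stress keratins were higher too, and they varied widely among the skin-rich libraries. Krt6a, a keratin of injured epidermis and of the hair follicle's companion layer, was at 226 CPM in vehicle day 7 replicate 5 and 136 CPM in unmasked control day 7 replicate 5. It was at 45.8 CPM in mXTX301 day 4 replicate 3, 27.2 CPM in unmasked control day 4 replicate 5 and 27 CPM in unmasked control day 7 replicate 3. It was at 13.6 and 5.47 CPM in mXTX301 day 7 replicates 1 and 3 and at 6.73 CPM in vehicle day 4 replicate 4. The order thus differed from that of Krt10, for which mXTX301 day 7 replicate 1 was highest at 328 CPM. In the 22 other libraries Krt6a was at 0, 0 and 9.39 CPM, a log2 difference of 6.66 ± 0.92, and the values overlapped. Krt6b, its near-identical neighbour, was at 6.25, 36.3 and 265 CPM against 0, 0 and 8.25 CPM (7.41 ± 0.85), and how reads were divided between this pair is uncertain.

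Krt16 and Krt17, the partners of the Krt6 keratins, had a base level in all libraries. Krt16 was at 9.32, 41.2 and 302 CPM against 2.32, 7.09 and 19.9 CPM (log2 difference 2.98 ± 0.33). Krt17 was at 7.71, 22.1 and 140 CPM against 0.621, 2.72 and 7.22 CPM (3.48 ± 0.33). Sprr1b, a small proline-rich envelope protein made under stress, was at 0.0155, 1.32 and 14.9 CPM against 0, 0.036 and 0.773 CPM (5.31 ± 0.77). Krt16 and Sprr1b overlapped between the classes. Of 18 genes listed, 12 were tested and 10 were called higher, with a median log2 difference of 3.85. The exceptions were Il1rn, the interleukin-1 receptor antagonist, and Ecm1, whose log2 differences were 0.09 ± 0.16 and -0.08 ± 0.11.

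The make-up of the skin signal was not constant between libraries. Krt10 divided by Krt14 was 2.74 in mXTX301 day 7 replicate 1 and 0.189 in vehicle day 7 replicate 5, the extremes of the skin-rich class. Krt6a divided by Krt14 ran the other way, at 0.114 in mXTX301 day 7 replicate 1 and 0.653 in vehicle day 7 replicate 5. Krt77, a type II keratin of suprabasal epidermis and sweat ducts, was at 60.1 CPM in mXTX301 day 7 replicate 1 and at 0.729 CPM in vehicle day 7 replicate 5. That value was under the 1.58 CPM of vehicle day 7 replicate 2, a library outside the class, although vehicle day 7 replicate 5 held the largest share of skin counts. These ratios are values of single libraries with no replicate behind them.

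**Figure D2:**
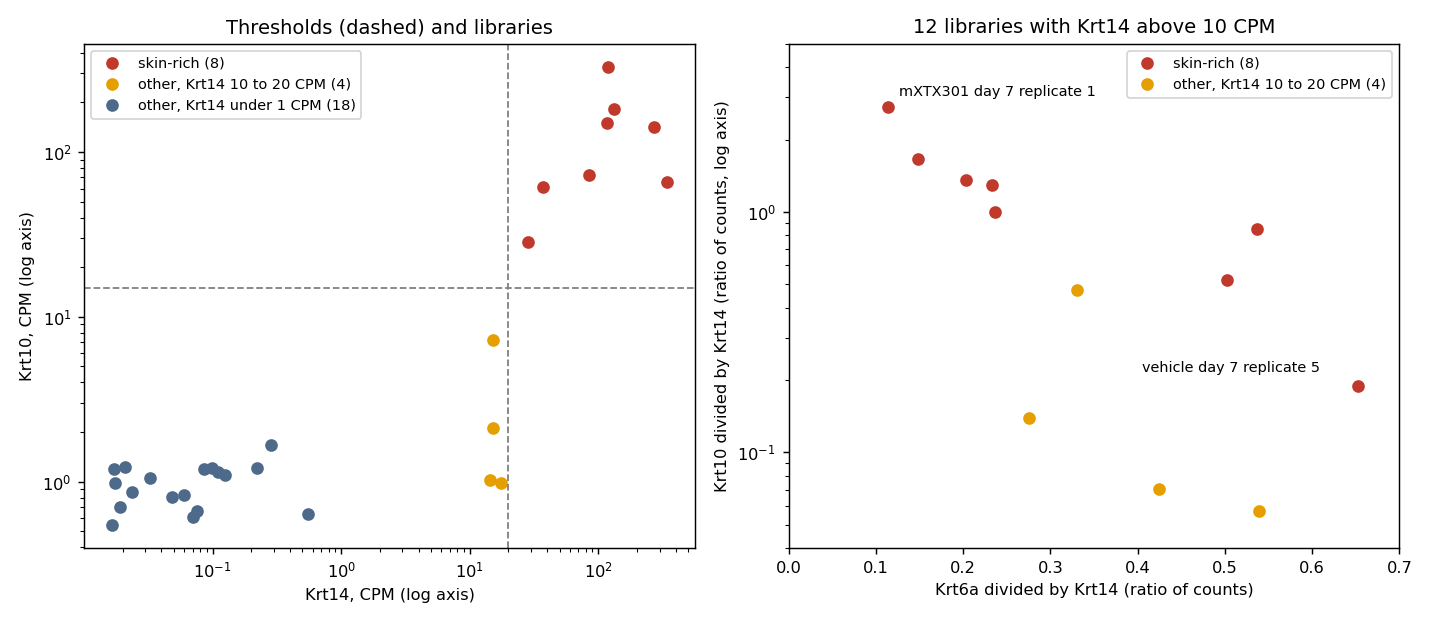
Left, Krt10 against Krt14 (CPM, log axes) in 30 libraries with the thresholds of 15 and 20 CPM as dashed lines; right, Krt10 divided by Krt14 (log axis) against Krt6a divided by Krt14 in the 12 libraries with Krt14 above 10 CPM. Vehicle day 7 replicate 5 has the highest Krt6a ratio, 0.653, and the lowest Krt10 ratio of the skin-rich class, 0.189.

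The 4 libraries just under the Krt14 threshold held Krt5, Krt14 and Krt6a, and they differed among themselves in the genes of the upper layers. Their Krt5 was between 5.78 and 11.8 CPM, against at most 0.287 CPM in the remaining 18. Krt6a was at 5.03 and 4.19 CPM in vehicle day 7 replicates 2 and 3, 9.39 CPM in unmasked control day 4 replicate 4 and 6.16 CPM in unmasked control day 7 replicate 2, close to the 5.47 CPM of the lowest skin-rich library. Krt10 was at 7.24 and 2.12 CPM in the vehicle pair but at 0.989 and 1.02 CPM in the unmasked control pair, which is within the 0.545 to 1.68 CPM of the remaining 18. Lor was at 1.18 and 0.588 CPM in the vehicle pair, at 0.0618 CPM in unmasked control day 4 replicate 4 and at 0 in unmasked control day 7 replicate 2. Krt10 divided by Krt14 was 0.476, 0.139, 0.0568 and 0.0705 in the same order, and in 3 of these libraries it lay under every skin-rich value. Both genes made the classes, and the skin-rich class required Krt10 above 15 CPM. Low ratios were thus in part kept out of it by the rule, and this difference is not a result.

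Over the lists the 4 libraries also differed. In vehicle day 7 replicate 2, 21 of the 27 cornified genes called higher, 16 of the 22 spinous and 8 of the 14 basal genes exceeded the highest of the remaining 18 libraries. In unmasked control day 7 replicate 2 it was 5 of the 27 cornified genes, 8 of the 22 spinous and 9 of the 14 basal genes, and 12 of the cornified genes had no read. Vehicle day 7 replicate 3 and unmasked control day 4 replicate 4 had 14 and 12 of the 27 cornified genes, 11 and 13 of the 22 spinous and 4 and 7 of the 14 basal genes above that level. In the vehicle pair the share of cornified genes was thus above that of basal genes, and in the unmasked control pair it was below. In the 8 skin-rich libraries 24 to 27 of the cornified and 9 to 13 of the basal genes exceeded that level. These 4 libraries were singled out after their values were seen. Over the 30 libraries a count of 0 allows a level of up to 0.0352 to 0.0621 CPM, the lower limit for the deepest library.

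**Figure D3:**
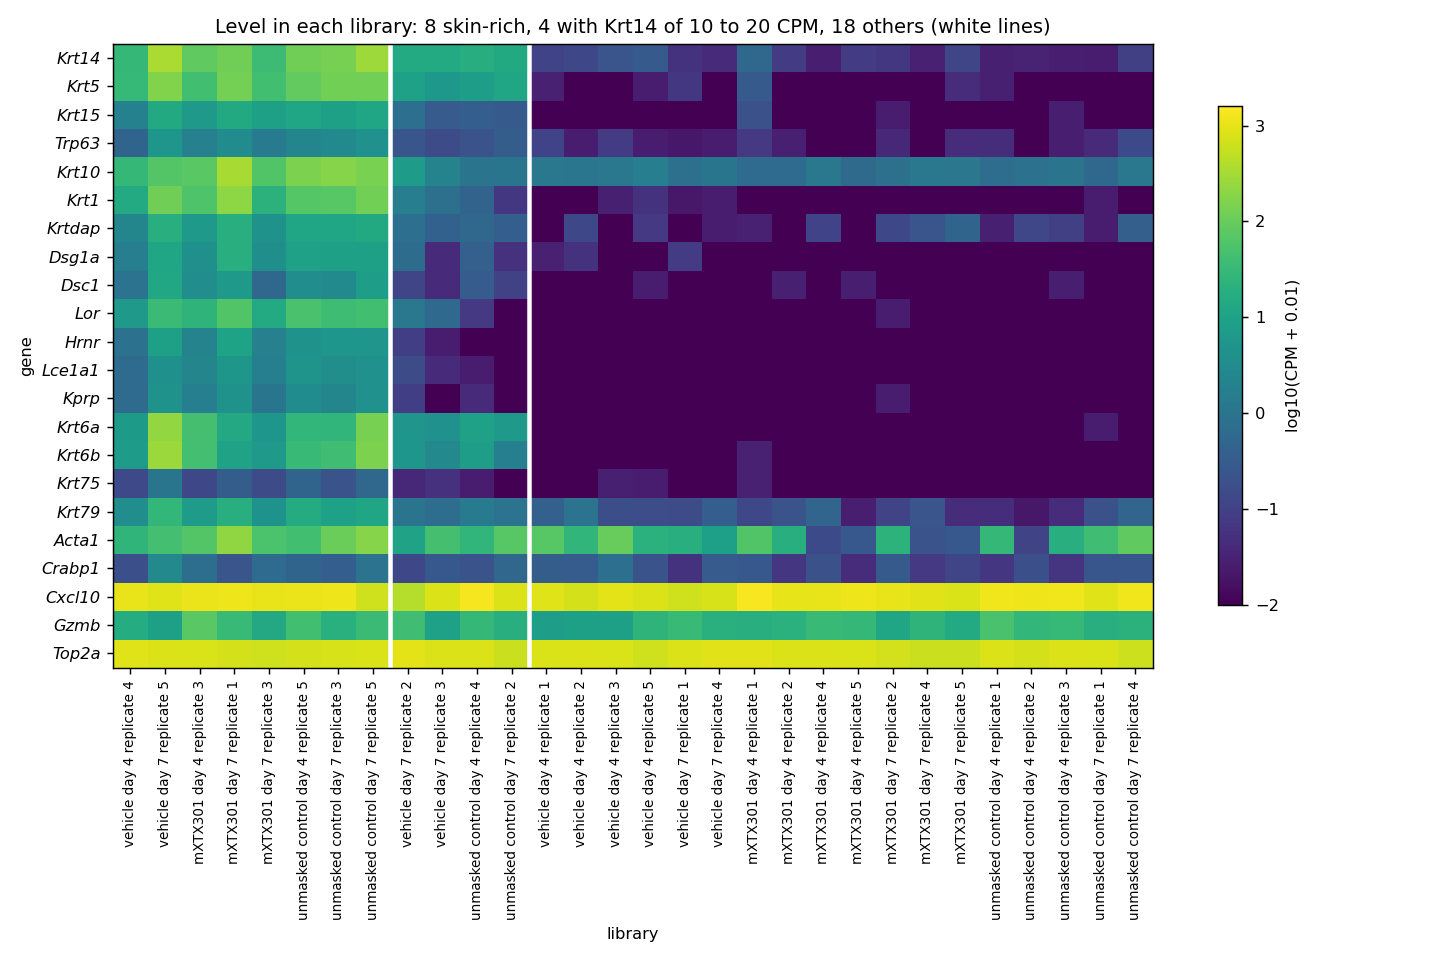
Colour gives log10(CPM + 0.01) for 22 genes (rows) in 30 libraries (columns), with white lines between the 8 skin-rich libraries, the 4 with Krt14 of 10 to 20 CPM and the remaining 18. The 4 in the middle hold Krt14, Krt5, Krt6a and Krt6b but little or no Hrnr, Lce1a1 or Kprp, and Cxcl10, Gzmb and Top2a do not follow the columns' order.

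Of the 384 genes called higher, 46 lay in 4 known gene clusters. In the epidermal differentiation complex the span was set by Lor, Hrnr, Rptn, the Lce and Sprr families and related genes. It ran on chromosome 3 from 92080271 to 93471980, and 26 of its 27 tested genes were called higher. Tchh, trichohyalin of the inner root sheath of hair, was the exception. S100 genes were not used to set the span. Of 12 tested S100 genes 1 was called higher, and those not called lie outside the span. Hrnr, Rptn and Lce1a1 had no read in the 18 libraries with Krt14 under 1 CPM. They passed the filter on low counts through the other 12 libraries, so the share of 26 of 27 is a description only. In the type II keratin cluster, chromosome 15 from 101348315 to 102032026, 9 of 10 were higher and Krt7 was not. In the type I keratin cluster, chromosome 11 from 99232761 to 100269951, 6 of 9 were higher, and Krt19, Krt20 and Krt42 were not. Krt10 and Krt14, among these 6, were used by the rule, so their calls are not a result. In the serpin B cluster of chromosome 1, from 106861175 to 107608978, 5 of 7 were higher. Of the 4 keratins outside the call, Krt7, Krt19 and Krt20 are known from simple epithelia.

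Hair follicle genes were few. Of 36 on the list only 8 passed the filter on low counts, and 3 were called higher. Krt79, a keratin of the upper follicle, was at 3.57, 10.7 and 27.1 CPM against 0.0117, 0.195 and 1.48 CPM (log2 difference 5.07 ± 0.52). Krt75, a companion layer keratin, was at 0.122, 0.263 and 1.03 CPM against 0, 0 and 0.0464 CPM (5.55 ± 0.45). Lgr5, a receptor of follicle stem cells, was at 0.106, 0.451 and 1.26 CPM against 0, 0.0498 and 0.603 CPM (2.43 ± 0.54), with overlap. Most keratins of the growing hair shaft and inner root sheath were near the level of 1 read. Krt85 reached 0.0306 CPM in the skin-rich libraries, and 6 listed genes, among them Krt35, Krt71 and Dsg4, had no read in any of the 30 libraries. Krt83 was the highest of the shaft keratins, at up to 0.202 CPM in the skin-rich class and up to 0.248 CPM in the others.

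Sebaceous and skin lipid genes were divided. Of 16 tested, 7 were called higher, with a list median of 0.14. Far2, which makes wax alcohols, was at 0.288, 1.25 and 2.15 CPM against 0, 0.0503 and 0.208 CPM (log2 difference 4.27 ± 0.43). Fa2h, a fatty acid hydroxylase, was at 0.496, 1.28 and 3.6 CPM against 0, 0.0765 and 0.714 CPM (3.97 ± 0.46). The general lipid enzymes Fasn and Scd1 were not called, with log2 differences of -0.01 ± 0.07 and -0.11 ± 0.13 at levels of at least 125 CPM in every library. Gland-restricted genes such as Awat1 and Mc5r stayed too low for the test, with Awat1 between 0.0308 and 0.231 CPM in the skin-rich class and at most 0.0155 CPM in the others. Awat2, also on the list, was tested and not called. It was at 0.744, 1.09 and 1.22 CPM against 0.514, 0.903 and 1.72 CPM (log2 difference 0.17 ± 0.15).

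Other cell types of skin were not seen to the same degree. None of the 4 tested melanocyte genes was called, and the defining pigment genes Tyr, Tyrp1, Dct and Mlana reached at most 0.241 CPM in the 30 libraries. Of the Langerhans cell list 2 of 9 were called higher, among them Epcam, which keratinocytes also make. Cd207, langerin, which defines those cells, was at 0.016, 0.0768 and 0.425 CPM against 0, 0.016 and 0.145 CPM and did not pass the filter. All 9 tested mast cell genes had a fitted difference above 0, with a median of 0.63, and none was called. Mcpt4, a protease of connective tissue mast cells, was at 2.09, 4.4 and 7.56 CPM against 0.398, 2.26 and 5.2 CPM (0.74 ± 0.25). The mast cell values overlapped widely.

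Dermal fibroblast genes were not seen to follow the epidermis. Of 25 tested, 1 was called higher, and the list median was -0.16. That gene was Crabp1, a retinoic acid binding protein of some dermal fibroblasts, at 0.176, 0.549 and 2.84 CPM against 0.0351, 0.204 and 0.788 CPM (log2 difference 1.84 ± 0.43). The highest value belonged to vehicle day 7 replicate 5, and without that library the difference was 1.29 and was not called. Collagens that make up most of the dermis had log2 differences of -0.19 ± 0.25 for Col1a1 and -0.53 ± 0.24 for Col3a1. Pi16, a marker of adventitial fibroblasts, was at 2.7, 14.8 and 38.5 CPM against 1.4, 16.3 and 214 CPM (-1.22 ± 0.52). The other libraries thus reached further up than the skin-rich ones, and no listed collagen was called higher. In the 18 libraries with Krt14 under 1 CPM, Col1a1 was already at 220 to 1740 CPM and Col3a1 at 339 to 3970 CPM. A small dermal share might be hidden at such levels.

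Skeletal muscle genes leaned one way without a call. All 24 tested members had a fitted difference above 0, with a median of 1.51, against -0.007 over all tested genes. Acta1, skeletal actin, was highest in mXTX301 day 7 replicate 1 at 222 CPM and unmasked control day 7 replicate 5 at 181 CPM, both skin-rich. It was also at 97.8 CPM in vehicle day 4 replicate 3 and 87.1 CPM in unmasked control day 7 replicate 4, which are not skin-rich, and its log2 difference was 1.67 ± 0.81. Myh1, a fast myosin, was at 11.5, 35.3 and 179 CPM against 0, 7.65 and 64.2 CPM (2.38 ± 0.75). The summed list was at 288, 541 and 1570 CPM in the skin-rich class and 115, 292 and 735 CPM in the others, so muscle reads occurred in both classes. DESeq2 called 3 of the 24 members higher, and edgeR called 3 without mXTX301 day 4 replicate 1 and 1 without vehicle day 4 replicate 4. The part of muscle in other differences was not tested.

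Fat, nerve and vessel lists held no call. Adipocyte genes had a median log2 difference of 0.44 over 19 tested, with Adipoq at 0.464, 1.18 and 2.42 CPM against 0, 0.227 and 12.4 CPM. Schwann cell genes had a median of -0.73 over 13 tested, with a summed level of 26.6, 39.7 and 56.8 CPM against 25.2, 43.6 and 216 CPM. The median was 0.88 over 7 lymphatic endothelial genes, -0.02 over 15 blood endothelial genes and -0.07 over 14 smooth muscle and pericyte genes. Each of these lists overlapped between the classes in its summed level. The counts of 0 were not fixed: without mXTX301 day 7 replicate 5, 2 adipocyte genes were called higher, and 1 lymphatic gene was called without mXTX301 day 4 replicate 1 or without unmasked control day 7 replicate 2.

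**Figure D4:**
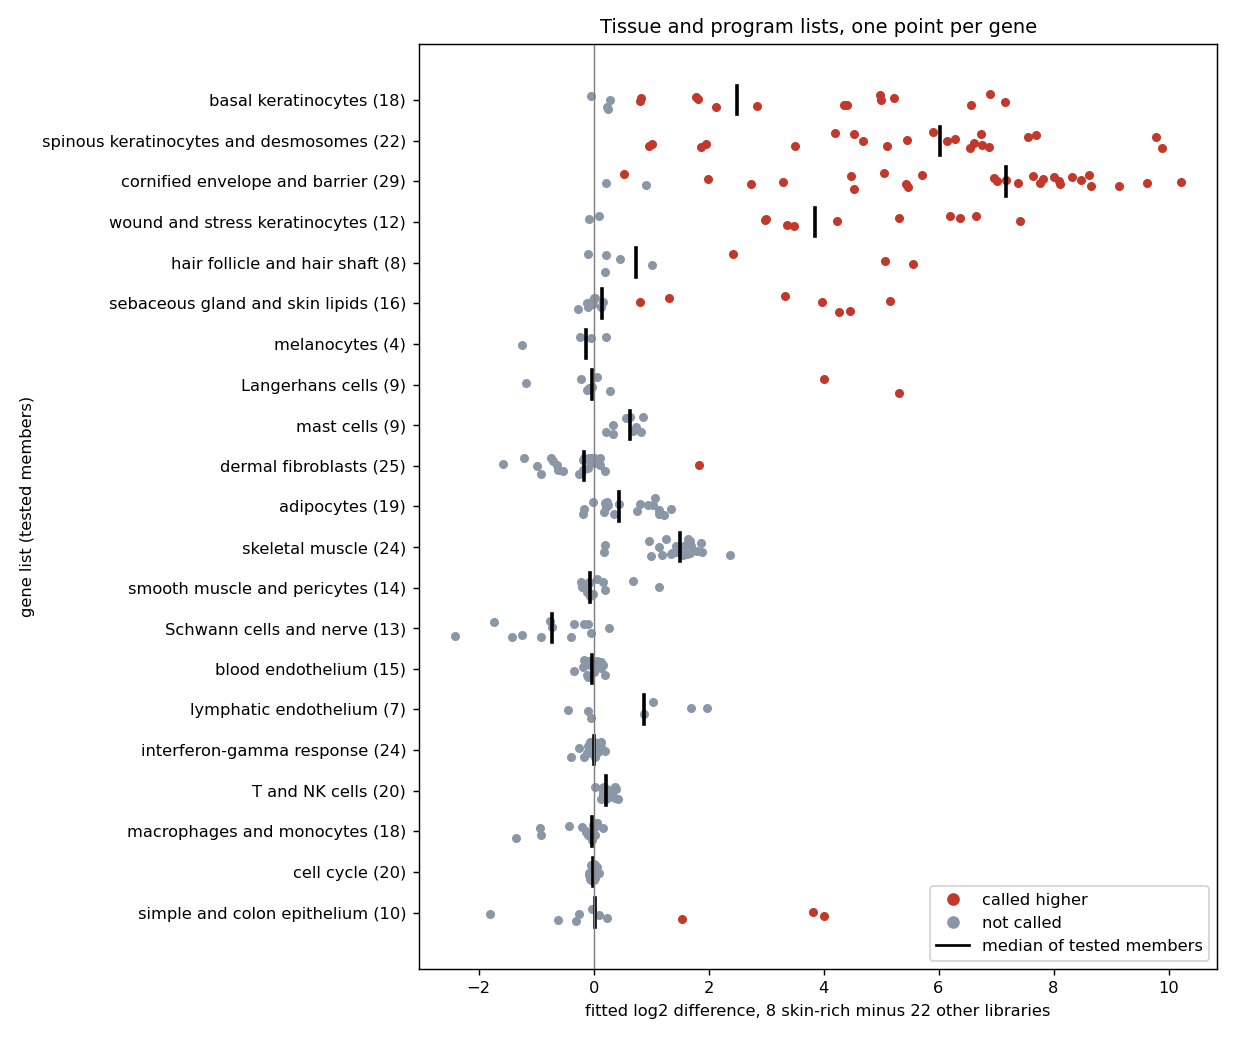
Fitted log2 difference (skin-rich minus other) of the tested members of 21 gene lists, 1 point per gene, red where called higher, with the list median as a black bar. The keratinocyte lists lie to the right with medians of 2.49 to 7.18, skeletal muscle is shifted to 1.51 without a call, and the interferon-gamma, macrophage and cell cycle lists sit at 0.01, -0.03 and -0.01.

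The lists of cell cycle, interferon-gamma response, T and NK cell and macrophage genes held no call between the classes once group was in the fit. Genes outside these lists could be called: Ifi202b was higher, and C1rb and Apln were lower. The 20 cell cycle genes had log2 differences of -0.08 to 0.09, and Top2a, a DNA topoisomerase of dividing cells, was at 682, 779 and 871 CPM against 609, 824 and 970 CPM. The 24 interferon-gamma response genes had a median of 0.01 and ran from -0.40 to 0.19, with none called. All 20 tested T and NK cell genes had a difference above 0, from 0.03 to 0.43 with a median of 0.22, and none was called. Gzmb, granzyme B, was at 9.13, 26.3 and 72.7 CPM against 8.06, 21.6 and 51.1 CPM (0.39 ± 0.27). Macrophage genes had a median of -0.03 over 18 tested and ran from -1.35 (Marco, ± 0.67) to 0.16, with none called. The levels in CPM are not adjusted for treatment group.

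Of the simple and colon epithelium list 3 of 10 tested genes were called higher, and these 3 are also made by keratinocytes. Cdh1, E-cadherin, was at 2.24, 7.22 and 10.8 CPM against 1.37, 1.99 and 4.46 CPM (log2 difference 1.53 ± 0.17). Epcam was at 0.465, 1.59 and 3.37 CPM against 0, 0.0735 and 0.371 CPM (4.01 ± 0.36), and Cldn4, a tight junction claudin, at 0.217, 0.965 and 2.73 CPM against 0, 0.0612 and 0.205 CPM (3.81 ± 0.44). Cdx2, the intestinal transcription factor, had no read in any of the 30 libraries, Cdx1 reached 0.303 CPM, and Krt20 reached 1.98 CPM, so the defining colon markers were at or near 0 in the MC38 tumours. Krt8 and Krt18 have near-identical copies in the genome and their low counts are not read as levels.

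Few genes were lower. Of the 16, 5 were lower by at least 2-fold, namely Wnt2, Dlk1, Paqr9, Cyp2ab1 and C1rb, and all 5 averaged under 1 CPM in the other libraries. Above that level Apln, apelin, a vessel growth peptide, was at 15, 16.6 and 28.1 CPM against 16.4, 27.1 and 43.7 CPM (log2 difference -0.51 ± 0.10). Scara3 was at 27.8, 33.1 and 39.4 CPM against 28.2, 41.6 and 79.6 CPM (-0.41 ± 0.09). Efemp2, a protein of elastic fibres, was at 95.1, 105 and 118 CPM against 94.9, 118 and 152 CPM (-0.22 ± 0.05). Mpst, a sulfur transferase, had a log2 difference of -0.20 ± 0.05. The classes overlapped in each of these 4 genes. The count of 16 was 2 with both thresholds doubled and 137 with the replicate number as a block.

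The drug comparisons of the study were fitted with and without a term for the skin class, in all 30 libraries, to see which calls moved. These tests compare treatments, 5 libraries against 5 at each day. For mXTX301 against vehicle at day 4, 4982 genes (32.2%) were called without the term and 5058 (32.7%) with it, and 4919 were in both. At day 7 the counts were 7493 (48.4%) and 7566 (48.9%), with 7291 in both. For the unmasked control against vehicle they were 3465 (22.4%) and 3595 (23.2%) with 3429 in both at day 4, and 6973 (45%) and 6942 (44.8%) with 6748 in both at day 7. The shared genes made up 96.8% to 99% of those called without the term and 95.4% to 97.3% of those called with it, and every shared gene kept its direction. The comparisons of a day share their 5 vehicle libraries, and the drugs differed in dose, so the drugs are not compared.

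Genes of the interleukin-12 response gave nearly the same values either way. Ifng, interferon-gamma, averaged 8.38 ± 2.87 CPM in mXTX301 day 7 and 0.257 ± 0.149 CPM in vehicle day 7 (SD, n = 5), a log2 difference of 5.04 ± 0.56 without the term (edgeR adjusted p = 1.36e-07) and 5.00 ± 0.56 with it (edgeR adjusted p = 1.86e-07). Cxcl9, a chemokine induced by interferon-gamma, moved from 2.93 ± 0.24 to 2.94 ± 0.25 in the same comparison (edgeR adjusted p = 1.94e-09 with the term). Cd8a, of cytotoxic T cells, moved from 4.38 ± 0.57 to 4.33 ± 0.57 (edgeR adjusted p = 2.09e-06 with the term). Within this panel 2 calls depended on the term, both at day 7. Prf1, perforin, averaged 27 ± 9.41 CPM in the unmasked control and 10.9 ± 7.75 CPM in vehicle (SD, n = 5); its log2 difference was 1.31 ± 0.51 (edgeR adjusted p = 0.0384) without the term and 1.17 ± 0.51 (edgeR adjusted p = 0.0647) with it. S100a8, a neutrophil and stressed keratinocyte protein, averaged 3.14 ± 1.59 CPM in mXTX301 and 1.61 ± 2.08 CPM in vehicle; its log2 difference was 1.00 ± 0.58 (edgeR adjusted p = 0.157) without the term and 1.26 ± 0.50 (edgeR adjusted p = 0.0406) with it. Without vehicle day 7 replicate 5, whose S100a8 was at 5.32 CPM, it was 2.21 and called in the fit without the term. The Prf1 call of the fit without the term was lost when any of 6 of the 30 libraries was left out.

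Calls moved among epidermal genes and among others. With the term 202 calls were lost and 275 gained for mXTX301 at day 7, and 225 were lost and 194 gained for the unmasked control at day 7, most of them outside the 384 genes higher in skin-rich libraries. Of the 384 genes higher in skin-rich libraries, 6, 16, 5 and 18 were called without the term for mXTX301 at day 4 and day 7 and the unmasked control at day 4 and day 7, which is 1.56%, 4.17%, 1.3% and 4.69% of them. With the term 29, 90, 51 and 53 were called, 7.55%, 23.4%, 13.3% and 13.8% of them, of which 66 of the 90 were lower under mXTX301 at day 7 and 45 of the 51 higher under the unmasked control at day 4. Over all tested genes the shares were larger in both fits. In the same order they were 32.2%, 48.4%, 22.4% and 45% without the term and 32.7%, 48.9%, 23.2% and 44.8% with it. The term takes 1 average difference for all 8 libraries, while vehicle day 7 replicate 5 held 0.301% of its counts in skin genes and vehicle day 4 replicate 4 held 0.0313%. Krt14 averaged 31.4 ± 51.9 CPM in mXTX301 day 7 and 75.2 ± 151 CPM in vehicle day 7 (SD, n = 5), and its fitted log2 difference was -1.26 ± 2.21 without the term and -3.61 ± 1.45 with it. Lor averaged 15.4 ± 26.8 CPM and 7.46 ± 15.7 CPM in the same groups, and its log2 difference was 1.04 ± 2.40 without the term and -3.44 ± 1.07 with it. The direction for Lor thus turned with the term, and without mXTX301 day 7 replicate 1 alone it was -0.98 in the fit without the term. Among the 6 markers Krt10, Krt1 and Krtdap also turned under mXTX301 at day 7, and no drug effect on epidermal genes is read from either fit.

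**Figure D5:**
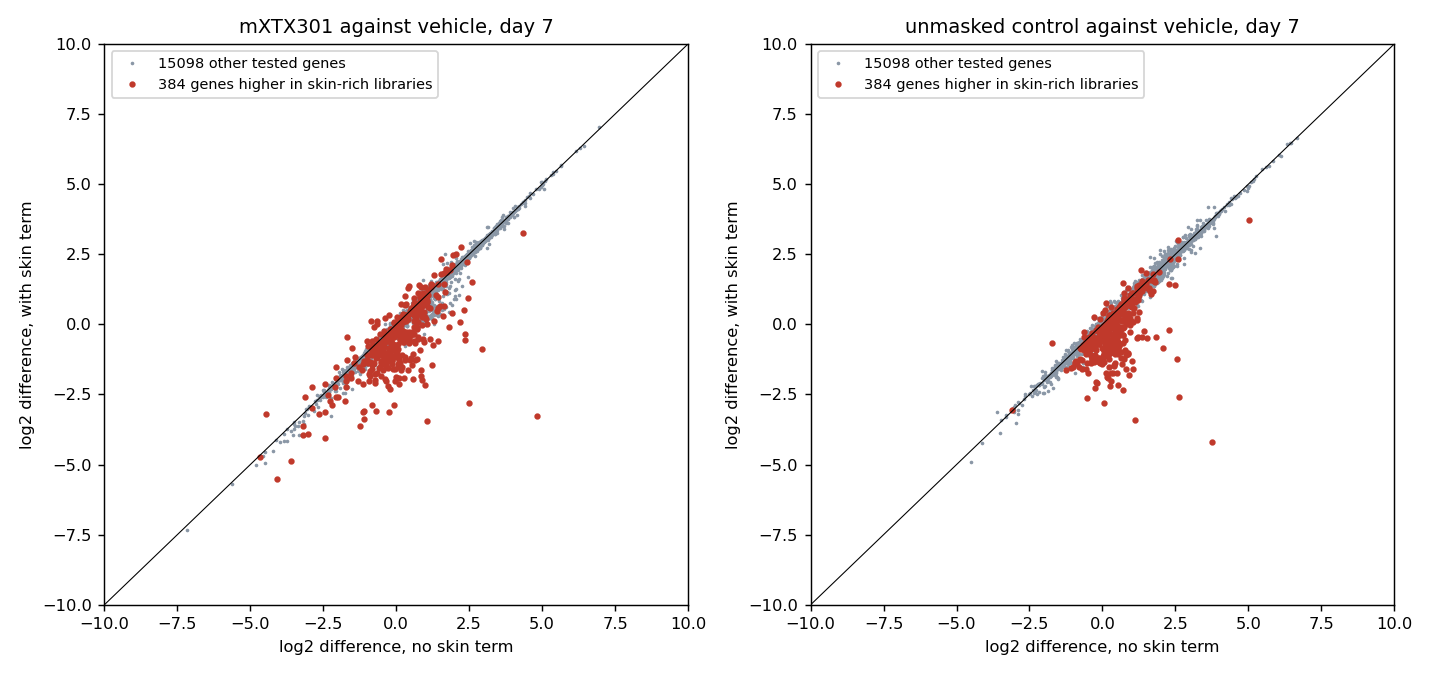
Fitted log2 difference of drug against vehicle at day 7 with a skin term (vertical) and without one (horizontal) for mXTX301 (left) and the unmasked control (right), 1 point per tested gene; red points are the 384 genes higher in skin-rich libraries, grey points the other 15098, and the line marks equal values. Many red points lie off the line, Lor among them at 1.04 and -3.44 on the left.

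Leaving out the 8 skin-rich libraries gave 3961, 6685, 2759 and 5800 calls in the same order, with 3 or 4 libraries a group. Gzmb under mXTX301 at day 4 had a log2 difference of 1.34 ± 0.42 with all libraries (edgeR adjusted p = 0.0161), and 0.96 without the skin-rich ones, where it was no longer called. Prf1 under the unmasked control at day 7 was likewise lost, at 0.93. The mXTX301 day 4 library left out there, replicate 3, had the highest Gzmb of its group, 72.7 CPM against 33.4 CPM in the next.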

How the data were processed

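Whole-number counts per gene were deposited by the authors for 30 polyadenylated RNA libraries, with 5 numbered replicates per group. STAR 2.7.10a and HTSeq 0.11.1 are named in the submitters' processing notes beside edgeR 3.34.0, R 4.1.0, FastQC 0.11.9, cutadapt and build mm10, with no role stated. Strandedness is not given in the sources used here, so overlapping genes cannot be told apart. The second deposited table, of log2 values, was not used.

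Of 24557 entries 5 repeated symbols were dropped. CPM is the count scaled to the library's total. The skin contrast was fitted in all 30 libraries with the 6 groups and the skin class as terms (23 residual degrees of freedom), and the drug contrasts with the groups alone (24) and with the class added. edgeR 4.0.16 quasi-likelihood tests (R 4.3.3, limma 3.58.1) with TMM scaling and filterByExpr gave 15482 tested genes, adjusted by Benjamini-Hochberg and called under 0.05. Fisher's exact test set class against labels. Alternatives were DESeq2 1.42.0, other scalings, no filter, other thresholds, and left-out libraries.

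The members, gene lists and rules were chosen with earlier results of these data known. Named genes were the 6 markers, the 10 largest differences among genes averaging 1 CPM or more and separated in all 6 groups, the 5 largest lower, up to 4 members per list, a drug-response panel and genes whose drug call depended on the skin term; further list members and all families were named after their values were seen, and a few genes that the rule picked are not reported here. Positions and promoters came from RefSeq GRCm38.p6, which matched 15462 tested genes. The fits were tested on simulated data with known changes. The skin fit recovered 91% of 2-fold and 99% of 4-fold changes, and 6.4% of its calls were false. The fit of mXTX301 against vehicle at day 7 recovered 78% and 96%, with 2.25% of calls false. Apart from the set changes the simulated libraries had no group differences, and genes of very low level were not changed. A count of 0 allows 3 reads; such limits cover counting error only.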

Additional observations from a re-analysis of the deposited data

Results flagged for a closer look

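In 101 sets of 5 or 8 libraries, 11 had a single library apart from the rest. The cut-off gives about 1 in 20 by chance for normally distributed values in independent sets. The CPM values were not transformed and the sets share libraries, so 11 is not read as an excess. Among the 8 skin-rich libraries, Krt77 was at 60.1 CPM in mXTX301 day 7 replicate 1 and at most 19.6 CPM in the others. The summed level of basal keratinocyte genes was 1550.0 CPM in vehicle day 7 replicate 5, with the next at 1070.0 CPM. The summed level of dermal fibroblast genes was lowest in unmasked control day 4 replicate 5, at 4280.0 CPM, with the next at 6640.0 CPM.

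Within treatment groups, S100a8 was at 5.32 CPM in vehicle day 7 replicate 5, which is skin-rich, against 0.841 CPM in the next library. It was at 5.08 CPM in unmasked control day 4 replicate 5, also skin-rich, against 2.3 CPM. In mXTX301 day 4 replicate 3, the skin-rich library of its group, 3 genes of cytotoxic lymphocytes stood apart: Cd8a was at 35.1 CPM with the next at 9.43 CPM, Gzmb at 72.7 CPM with the next at 33.4 CPM, and Prf1 at 57.7 CPM with the next at 22 CPM. Gzmb was at 34.5 CPM in unmasked control day 7 replicate 5, which is skin-rich, with the next at 21.8 CPM. Outside the skin-rich class, Cd8a was at 43.2 CPM in mXTX301 day 7 replicate 4 with the next at 21 CPM, and Cxcl9 was at 239 CPM in unmasked control day 4 replicate 2 with the next at 139 CPM. Whether skin content has a part in these values was not tested.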

How the results depend on the processing

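The count of genes higher in the skin-rich libraries, 384, stayed within 1.5 times under each alternative that was run, from 310 (Krt14 above 10 CPM alone, chosen after seeing the data) to 523 (no filter), and 419 without the 4 libraries with Krt14 of 10 to 20 CPM. Leaving out 1 library gave 350 to 450. The count of genes separated in every group was then 227 to 290, against 224 with all libraries. Leaving out a library loosens this criterion, so a higher count says nothing of stability. The 290, without vehicle day 4 replicate 4, covers only the groups that still held a skin-rich library. The count of lower genes, 16, did not hold: it was 2 with both thresholds doubled, 68 with DESeq2, 5 with Krt14 above 10 CPM alone, 10 with Krt14 as a continuous term, 137 with a replicate block and 8 with total counts only, and leaving out 1 library gave 5 (without vehicle day 4 replicate 4) to 39 (without vehicle day 4 replicate 5), and 11 of the 30 libraries moved it by over 1.5 times when left out; the cause was not tested. The other 9 were mXTX301 day 4 replicates 2, 3 and 4, mXTX301 day 7 replicates 1, 2 and 3, unmasked control day 4 replicates 2 and 3, and unmasked control day 7 replicate 5. Over 2000 genes the mean r between libraries was 0.0436 for the same replicate number and -0.00442 otherwise. For 9 of 30 libraries the closest partner shared the number. Whether replicate numbers pair libraries was not tested. The replicate block gave 370 higher genes, and 4865, 7419, 3415 and 6947 drug calls in the order of the report. Leaving out 1 library gave 4148 to 5151, 6658 to 8256, 2751 to 3804 and 6088 to 7762 of these. Directions of epidermal genes in the drug contrasts were not stable. Calls with a turned direction were, with the skin term, Lor to -3.438 (mXTX301) and -3.425 (unmasked control) and Krt77 to -4.192 (unmasked control), and without the 8 libraries Krt1 to -8.253 and Krt10 to -1.379 (mXTX301) and Krt10 to -1.617 (unmasked control), all at day 7 and in log2; the cause was not tested. Uncalled markers turned too: with the term Krt10 went from 1.11 to -0.42 for mXTX301 at day 4, and Krt1 from 0.97 to -2.15 for mXTX301 and from 0.72 to -2.33 for the unmasked control at day 7. Leaving out mXTX301 day 4 replicate 3 turned Lor from 1.83 to -9.32 and Krt1 from 1.94 to -10.52 for mXTX301 at day 4, and leaving out unmasked control day 4 replicate 5 turned Krt10 from 2.18 to -2.88 for that drug at day 4. DESeq2 gave no adjusted p for 16 named gene values, which are not counted as lost calls. It called 14 of the 22 spinous genes, a count that leaves out members with no adjusted p. Depth limits genes near 1 read, such as the hair shaft keratins.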

Other observations

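Regulators of epidermal differentiation were among the genes that came with the skin; they and the families in this section were picked after their values were seen. Zfp750, a factor of terminal differentiation, was at 0.384, 0.979 and 2.66 CPM (lowest, median and highest skin-rich library) against 0, 0 and 0.166 CPM in the others. Grhl1, a grainyhead factor that acts on desmosome genes, was at 1.22, 3.33 and 4.25 CPM against 0.541, 0.796 and 1.2 CPM, and Tfap2c at 0.144, 0.671 and 2 CPM against 0, 0 and 0.111 CPM. None of these 3 overlapped between the classes. Tfap2a, from the same family as Tfap2c, did not differ in this way, at 33.9, 36.8 and 44.1 CPM against 26, 38.6 and 48.8 CPM.

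Several families split between members that came with the skin and members that the other libraries also held. All 8 tested desmosomal cadherins and all 15 tested late cornified envelope genes were called higher, and so were 15 of 19 keratins and 6 of 8 kallikreins. Krt10 and Krt14, among these keratins, were part of the rule. Members with few reads in every library, such as Lce3c, were not tested. Of 12 S100 proteins only S100a14 was called, at 1.49, 4.89 and 13 CPM against 0.0165, 0.237 and 1.28 CPM. Of 4 gasdermins, which form pores in membranes, Gsdma and Gsdmc were called and Gsdmd and Gsdme were not; Gsdma was at 0.176, 1.45 and 3.98 CPM against 0, 0.0165 and 0.0927 CPM. Of 15 serpin B genes 5 were called, led in level by Serpinb5 (maspin) at 1.79, 6.46 and 9.11 CPM against 0, 0.0338 and 0.556 CPM. Of 13 Wnt ligands, Wnt3, Wnt4 and Wnt7b were higher and Wnt2 was lower. Wnt4 was at 0.176, 1.26 and 3.52 CPM against 0, 0.0617 and 0.294 CPM, and Wnt2 at 0, 0.125 and 0.292 CPM against 0.0121, 0.45 and 3.3 CPM. Il1f5, an interleukin-36 receptor antagonist, was at 0.352, 1.77 and 3.98 CPM against 0, 0 and 0.0695 CPM, and Skint5, a relative of butyrophilins, at 0, 0.19 and 0.477 CPM against 0, 0 and 0.0207 CPM.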
